A study of Mus musculus with 18 samples.

Results

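The insulin-like growth factor (IGF) genes followed here were the ligand Igf1, its receptor Igf1r, the adaptor Irs1 and 6 binding proteins, Igfbp2, Igfbp3, Igfbp4, Igfbp5, Igfbp6 and Igfbp7, in 18 mouse medulloblastomas. They were taken by symbol, with the probe set of highest mean over all arrays standing for each gene, and all 9 of 9 were measured among 19938 genes. Igf1 and Igfbp2 passed a test for any difference among the 5 tumour groups, as did 13.7% of all genes. The Igfbp2 call held without any 1 of the 18 arrays, whereas the Igf1 call held in 6 of the 18 such fits. Igfbp2 was highest in GFD-Smo tumours and lowest in GFD-Ptch tumours, 3.14-fold apart. Igf1 was highest in NG-Smo and lowest in GFD-Ptch tumours, 2.06-fold apart, a gap whose call was lost without GFD-Ptch replicate 2.

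IGF1 and IGF2 are secreted peptides that bind the receptor tyrosine kinase IGF1R. The activated receptor phosphorylates adaptors such as IRS1, which recruit PI3-kinase and so lead to AKT and mTOR. The IGF binding proteins hold IGFs outside the cell and can either keep them from the receptor or prolong their supply, while IGFBP7 is a related protein that binds IGFs weakly. In the cerebellum, IGF signalling is known to act together with Sonic hedgehog on the growth of granule neuron progenitors, the cells from which Hedgehog-driven medulloblastomas arise.

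Total RNA (250 ng) from each mouse tumour was labelled with biotin and hybridised to an array for whole transcripts. The Ptch tumours formed 3 groups, with 4 arrays of NG-Ptch, 2 of GFD-Ptch and 4 of GFI-Ptch, and the series compared these subtypes, whose names the labels do not spell out. The Smo tumours formed 2 groups of 4 arrays. These were NG-Smo;Atoh1-CreER, called NG-Smo here, and GFD-Smo;GFAP-cre, called GFD-Smo. Ptch is the receptor that restrains Smo, the transducer of the Hedgehog signal. Atoh1-CreER is an inducible recombinase expressed from the gene of a granule neuron progenitor factor, and GFAP-cre is a recombinase driven by the promoter of a glial filament gene that is also active in neural progenitors. Subtype and Cre driver ran together in the Smo tumours and cannot be told apart there. The alleles of Ptch and Smo, the age of the mice and any pooling were not stated in the labels used here. GFI-Ptch replicate 4 had, by its labels, developed from an earlier tumour and was carried by an NSG female, an immunodeficient host. It is called the transplanted tumour. Whether replicates were separate animals was not stated, so a p-value covers the spread between these samples only.

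Replicates of a group correlated at 0.97 or more over all genes, with the lowest value in GFI-Ptch (0.97 to 0.992). Granule neuron progenitor genes were high in every array, with Atoh1 between 11.78 and 12.81 on the log2 scale. Developing muscle genes averaged 10.04 in the transplanted tumour, against 7.15 to 7.95 in the other arrays. Of 13 arrays with a gender label of female or male, 3 Y-linked genes went against the label in 3, which were the transplanted tumour and GFD-Smo replicates 2 and 3. The Y-linked genes were on in 2 of 2 GFD-Ptch arrays and in 0 of 4 NG-Ptch arrays, so sex and subtype cannot be told apart in that comparison. The other 3 NG-Ptch arrays carried the label ND and 1 was labelled female.

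Among the 9 genes, 2 passed a test for any difference over the 5 groups (limma F test, adjusted p under 0.05 over all genes), namely Igf1 and Igfbp2, a count to be read against 13.7% of all genes. Igfbp2 had an F of 10.31 (adjusted p = 0.0062) and Igf1 an F of 6.03 (adjusted p = 0.0348). For the other members the adjusted p lay between 0.138 for Igfbp5 and 0.596 for Igfbp6. The difference between the highest and the lowest group mean ran from 0.22 for Igfbp6 to 1.65 for Igfbp2 on the log2 scale. Every gene's 5 means were set in order, and of the 36 pairs of neighbours in these orders 0 passed limma's test, with a lowest adjusted p of 0.116 and 1 pair at an unadjusted p under 0.05. Of all 90 pairs of groups, 4 passed, 3 for Igfbp2 and 1 for Igf1. Both counts are to be read against 0% to 15.6% of all genes called, depending on the pair. At an unadjusted p under 0.05 that share was 8.53% to 33.3%. GFD-Ptch held the lowest mean for 3 of the genes, Igf1, Irs1 and Igfbp2.

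**Figure D1:**
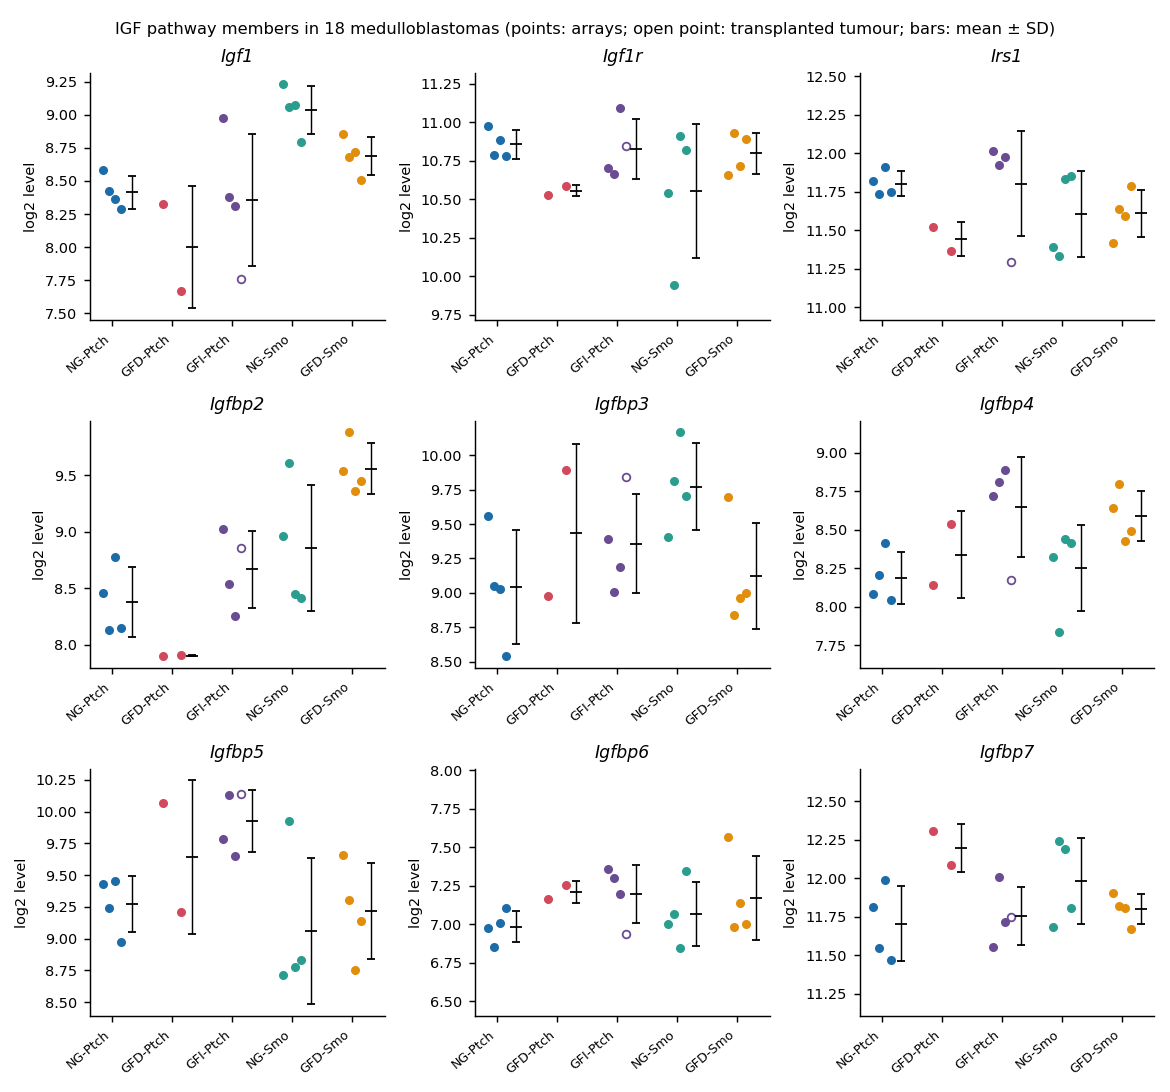
Log2 level of each of the 9 genes (vertical axes) in the 18 arrays, by group; points are arrays, the open point is the transplanted tumour and bars are the mean and SD. Igfbp2 spans 7.90 to 9.88 and its 4 GFD-Smo arrays lie above all Ptch arrays, while Igfbp6 stays between 6.85 and 7.57.

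Dropping 1 array at a time left the Igfbp2 result past the threshold in all 18 cases, with adjusted p between 0.00118 and 0.025. The Igf1 result passed in 6 of the 18. It was lost without NG-Ptch replicate 2, 4 or 5, GFD-Ptch replicate 2, GFI-Ptch replicate 2 or 3, NG-Smo replicate 1, 2 or 3, or GFD-Smo replicate 1, 2 or 3, where the adjusted p was 0.0504 to 0.0943. It was also lost with the gender label in the model (adjusted p = 0.0857). That label went against Y-linked genes in 3 of 13 labelled arrays and was ND in 3 of 4 NG-Ptch arrays. Fits with it therefore do not isolate sex. Igfbp4 passed without the transplanted tumour (adjusted p = 0.0246) and Igfbp5 passed without NG-Smo replicate 2 (adjusted p = 0.0156).

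**Figure D2:**
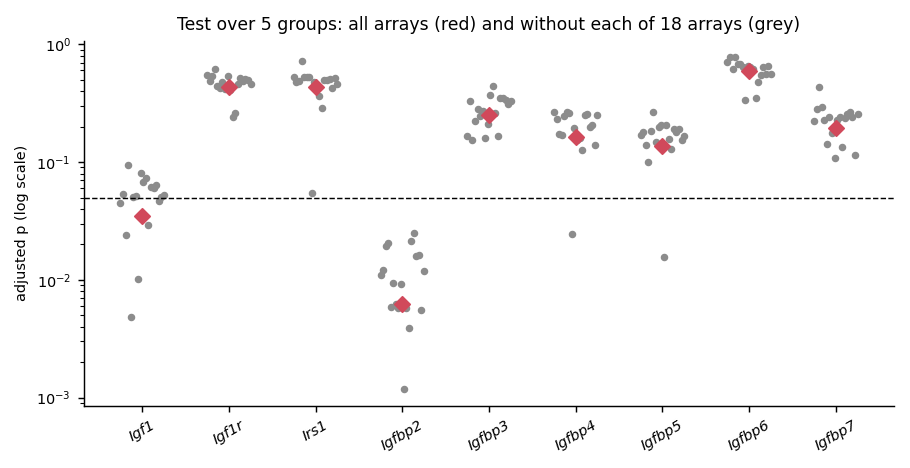
Adjusted p of the test over 5 groups (vertical axis, log scale) for each gene, with all arrays (red diamonds) and without each of the 18 arrays in turn (grey points); the dashed line marks 0.05. All Igfbp2 points lie below the line, the Igf1 points lie on both sides, and 1 point each of Igfbp4 and Igfbp5 lies below it.

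Igf1 (probe set 10365559), the ligand, was highest in NG-Smo and lowest in GFD-Ptch. Its start region is shown because Igf1 is 1 of the 2 members that passed the test over the groups. The RefSeq window on GRCm38.p6 is chr10:87860861-87861160 on the + strand, from 250 bases before to 50 bases after the transcript start. Capitals would mark the GC box (spelled GGGCGG), the TATA box (spelled TATAAA), the E box (spelled CACGTG) or the GLI site (spelled GACCACCCA) on either strand, and this window holds 0 of each:
Igf1: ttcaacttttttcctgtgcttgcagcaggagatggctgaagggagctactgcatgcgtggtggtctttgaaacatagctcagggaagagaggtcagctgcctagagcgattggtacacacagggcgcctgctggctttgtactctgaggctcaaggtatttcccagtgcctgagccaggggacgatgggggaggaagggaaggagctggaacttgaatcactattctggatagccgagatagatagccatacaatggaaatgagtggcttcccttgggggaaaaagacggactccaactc
Its GC content was 52.3%, close to the median of 52.7% over 32851 windows of the same length. In these windows GGGCGG occurred in 35.7%, TATAAA in 13.6%, CACGTG in 7.15% and GACCACCCA in 0.253%.

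The NG-Smo arrays read 9.23, 9.06, 9.08 and 8.79 for Igf1, and the GFD-Smo arrays 8.86, 8.68, 8.72 and 8.50. NG-Ptch arrays read 8.58, 8.42, 8.36 and 8.29 and GFD-Ptch arrays 8.32 and 7.67. GFI-Ptch spread widest, at 8.98, 8.38, 8.31 and, in the transplanted tumour, 7.76. All NG-Smo arrays therefore lay above all NG-Ptch and GFD-Ptch arrays, whereas GFI-Ptch replicate 1 lay among them. The group means were 9.04 ± 0.18 in NG-Smo, 8.69 ± 0.15 in GFD-Smo, 8.41 ± 0.13 in NG-Ptch, 8.36 ± 0.50 in GFI-Ptch (SD, n = 4 each) and 8.0 ± 0.46 in GFD-Ptch (SD, n = 2). NG-Smo exceeded GFD-Ptch by 1.04 on the log2 scale (SE 0.24, limma adjusted p = 0.0297), a pair of groups in which 3.43% of all genes passed. This call rested on single arrays. Without GFD-Ptch replicate 2 the difference was 0.72 (adjusted p = 0.389), and without NG-Smo replicate 1, 2 or 3 the adjusted p was 0.0602, 0.0579 or 0.0638. With the gender label in the model it was 0.93 (adjusted p = 0.0842), and with only these groups fitted it was 1.04 (adjusted p = 0.124). NG-Smo minus NG-Ptch was 0.63 (SE 0.20, adjusted p = 0.186) and GFD-Smo minus GFD-Ptch was 0.69 (SE 0.24, adjusted p = 0.0626), neither past the threshold with all arrays. The latter depended on which GFD-Ptch array was kept, at 0.37 (adjusted p = 0.569) without replicate 2 and 1.02 (adjusted p = 0.0443) without replicate 1. It also passed without the transplanted tumour (adjusted p = 0.0205) or GFI-Ptch replicate 1 (0.024), while the fits without any 1 of the other 14 arrays did not pass. It passed as well with the replicate block (0.83, adjusted p = 0.01), quantile normalization, median centring, the filter on dim genes, array weights, only these groups fitted, and without the transplanted tumour and NG-Smo replicate 4 (adjusted p = 0.00867 to 0.0495 over these 6). It did not pass with the gender label, the mean of probe sets or trend and robust variance. Over all 10 of these settings the difference was 0.59 to 0.83 and the highest limma adjusted p was 0.152.

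Markers of microglia and macrophages moved with Igf1. The mean log2 level of the 15 measured genes of a list of 16, Csf1r, Cx3cr1 and C1qa among them, was 9.53 to 9.65 in NG-Smo, 9.21 to 9.35 in GFD-Smo, 8.97 to 9.46 in NG-Ptch, 8.85 to 9.55 in GFI-Ptch and 8.68 to 8.95 in GFD-Ptch. In bulk tumour RNA, fewer cells of a type and less RNA per cell cannot be told apart. None of the 15 fell to the arrays' lower quartiles (6.21 to 6.38), the lowest reading being 6.87 for P2ry12. Over the 18 tumours, Igf1 and this score had a Pearson r of 0.928 (permutation p = 1e-05) and a Spearman rho of 0.932 (permutation p = 1e-05), the smallest p that 100000 resamples can give. Leaving out the 2 arrays with scores farthest from the median, GFD-Ptch replicate 2 and the transplanted tumour, gave an r of 0.892. After subtracting group means r was 0.858. This was the 1 relation of 36 (9 genes by 4 marker lists) with an adjusted permutation p under 0.05, at 0.00036. The 4 lists were microglia and macrophages, endothelium, pericytes and fibroblasts, and granule neuron progenitors. The astrocyte list, in which a group of arrays stood apart, and the other marker lists were not put through this test. Against NG-Ptch, 3 of the 15 marker genes rose in NG-Smo, where 1.04% of all genes were called. All 15 lay above 0, with a median of 0.37. Against GFD-Ptch, 8 of the 15 rose in NG-Smo, where 3.43% of all genes were called, and all 15 lay above 0, with a median of 0.81. The part of these cells in the Igf1 difference was not tested.

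**Figure D3:**
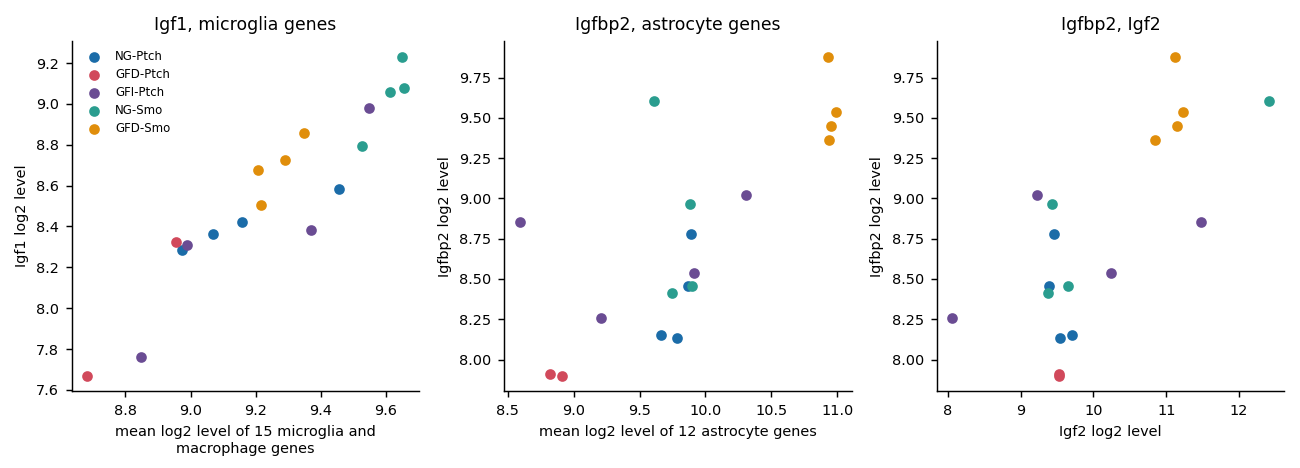
Left, Igf1 log2 level against the mean log2 level of 15 microglia and macrophage genes; centre, Igfbp2 log2 level against the mean of 12 astrocyte genes; right, Igfbp2 against Igf2, both as log2 levels. Points are the 18 arrays, coloured by group. Igf1 and the microglia score rise together over all groups, the 4 GFD-Smo arrays have the highest astrocyte scores (10.93 to 10.99), and NG-Smo replicate 2 pairs an Igfbp2 level of 9.60 with the highest Igf2 level, 12.41.

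Igf1r (10554094), the receptor, read 10.53 to 11.09 in every array but NG-Smo replicate 2, which read 9.95. Means were 10.86 ± 0.09 in NG-Ptch, 10.83 ± 0.19 in GFI-Ptch, 10.80 ± 0.13 in GFD-Smo, 10.56 ± 0.43 in NG-Smo (SD, n = 4 each) and 10.56 ± 0.04 in GFD-Ptch (SD, n = 2). The groups lay within 0.30 of each other on the log2 scale. Smo and Ptch tumours differed in their GFD minus NG change by 0.54 (SE 0.25, adjusted p = 0.243) and 0.34 without NG-Smo replicate 2 (adjusted p = 0.259).

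Irs1 (10356084), the adaptor that docks on the active receptor, read 11.29 to 12.02. GFI-Ptch arrays read 12.02, 11.93, 11.98 and, in the transplanted tumour, 11.29, the lowest of all 18. GFD-Ptch arrays read 11.52 and 11.36, below the 4 NG-Ptch arrays at 11.74 to 11.91. The mean was 11.44 ± 0.11 in GFD-Ptch (SD, n = 2) and 11.80 ± 0.08 in NG-Ptch (SD, n = 4), a difference that did not pass (adjusted p = 0.325). Irs1 was the 1 member with another probe set (10347792), which also read lowest in GFD-Ptch, at 6.74 ± 0.04, against 7.13 to 7.30 in the means of the other groups. Over the 5 groups Irs1 had an adjusted p of 0.43 with all arrays and 0.0543 without the transplanted tumour.

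Igfbp2 (10347277), a secreted binding protein of fetal brain and glia, separated the GFD-Smo tumours from every Ptch group. RefSeq gives it 2 starts in tandem on the + strand of chromosome 1 in GRCm38.p6, and both windows are shown because Igfbp2 is the member with the largest range of means. They are chr1:72824230-72824529 and chr1:72825137-72825436, and capitals mark GGGCGG and CACGTG:
Igfbp2 upstream start: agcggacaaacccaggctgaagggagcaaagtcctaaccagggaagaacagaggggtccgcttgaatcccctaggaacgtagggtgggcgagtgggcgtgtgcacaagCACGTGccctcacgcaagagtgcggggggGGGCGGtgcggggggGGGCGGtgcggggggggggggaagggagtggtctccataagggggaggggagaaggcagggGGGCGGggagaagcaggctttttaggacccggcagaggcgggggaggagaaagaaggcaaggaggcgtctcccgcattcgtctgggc
Igfbp2 downstream start: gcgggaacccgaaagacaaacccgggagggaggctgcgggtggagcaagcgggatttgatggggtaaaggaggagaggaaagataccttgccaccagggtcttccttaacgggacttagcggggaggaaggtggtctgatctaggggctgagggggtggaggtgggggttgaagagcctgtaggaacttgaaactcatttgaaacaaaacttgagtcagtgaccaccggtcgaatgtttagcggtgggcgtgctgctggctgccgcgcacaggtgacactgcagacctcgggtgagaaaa
The upstream window holds 3 GC boxes and 1 E box at a GC content of 67%, and the downstream window holds 0 of the 4 motifs at 57.3%. The array does not say which start was used. Over all 9 members and their 10 windows, GC boxes were found in Igf1r (2), Irs1 (2), Igfbp2 (3) and Igfbp7 (4). An E box was also found in Irs1 (1), and a GLI site in 0. The letters TATAAA were found in Igfbp4 (1) and, as TTTATA on the other strand, in Igfbp6 (1). Only exact spellings were counted, wherever they lay in the window.

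The GFD-Smo arrays read 9.54, 9.88, 9.37 and 9.45 for Igfbp2, and the NG-Smo arrays 8.96, 9.60, 8.45 and 8.41. NG-Ptch arrays read 8.46, 8.13, 8.78 and 8.15, GFI-Ptch arrays 9.02, 8.54, 8.26 and 8.85, and GFD-Ptch arrays 7.90 and 7.91. All GFD-Smo arrays lay above all Ptch arrays, both GFD-Ptch arrays lay below every other array, and NG-Smo replicate 2 lay inside the GFD-Smo range. The means were 9.56 ± 0.23 in GFD-Smo, 8.86 ± 0.56 in NG-Smo, 8.67 ± 0.34 in GFI-Ptch, 8.38 ± 0.31 in NG-Ptch (SD, n = 4 each) and 7.91 ± 0.01 in GFD-Ptch (SD, n = 2). Igfbp2 rose by 1.65 in GFD-Smo against GFD-Ptch (SE 0.29, 95% confidence interval 1.03 to 2.27, limma adjusted p = 0.00155). It rose by 1.18 against NG-Ptch (SE 0.24, adjusted p = 0.00517), where 8.66% of all genes passed. Against GFI-Ptch it rose by 0.89 (adjusted p = 0.0212), where 13.3% of all genes passed. The last of these was lost without GFI-Ptch replicate 2 (adjusted p = 0.0517) or 3 (0.071) or GFD-Smo replicate 2 (0.0696), and stood at 0.95 (adjusted p = 0.0213) without the transplanted tumour.

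Between the Smo groups, Igfbp2 was 0.70 higher in GFD-Smo (95% confidence interval 0.19 to 1.2) and missed the threshold (adjusted p = 0.116). Without NG-Smo replicate 2 the difference was 0.95 (adjusted p = 0.0121). Between the models, GFD minus NG differed by 1.17 (SE 0.38, adjusted p = 0.0989), and 1.42 (adjusted p = 0.0184) without that array. Within the Ptch tumours, GFI-Ptch minus GFD-Ptch was 0.76 (adjusted p = 0.41).

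Astrocyte genes had their highest group mean in GFD-Smo and their lowest in GFD-Ptch, as Igfbp2 did. Their mean log2 level over 12 of 12 listed genes was 10.93 to 10.99 in GFD-Smo and 8.82 to 8.91 in GFD-Ptch, with NG-Smo at 9.61 to 9.90, NG-Ptch at 9.66 to 9.89 and GFI-Ptch at 8.59 to 10.31. The other group means ran NG-Ptch (9.80), NG-Smo (9.79) and GFI-Ptch (9.51), which is not their order for Igfbp2. No correlation of this list with Igfbp2 was computed. Between GFD-Smo and GFD-Ptch 10 of these 12 genes rose, with a median of 2.32, where 15.6% of all genes were called. The 2 arrays with the 2 lowest Igfbp2 levels, those of GFD-Ptch, had astrocyte scores of 8.82 and 8.91. The transplanted tumour had the lowest score, 8.59, and an Igfbp2 level of 8.85. NG-Smo replicate 2 had a score of 9.61 and an Igfbp2 level of 9.60. Meningeal genes, 8 of 8 measured, averaged 8.34 to 8.97 in GFD-Smo and 7.81 to 7.99 in GFD-Ptch. Of these, 1 of the 8 rose, near the share of 15.6% of all genes called in that pair. Pericyte and fibroblast genes had an r of 0.565 with Igfbp2 (adjusted permutation p = 0.231) and granule neuron progenitor genes one of -0.535 (adjusted permutation p = 0.231). Without the 2 arrays of most extreme score these were 0.287 and -0.569, so the first rests on GFD-Smo replicates 1 and 2. The part of any of these cells in the Igfbp2 difference was not tested.

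Igfbp3 (10384223), the main IGF carrier of serum, spread widely inside the groups. NG-Smo arrays read 9.41, 9.82, 10.17 and 9.70, GFD-Smo arrays 9.69, 8.84, 8.97 and 9.0 and NG-Ptch arrays 9.56, 9.05, 9.03 and 8.54. GFD-Ptch arrays read 8.97 and 9.90 and GFI-Ptch arrays 9.39, 9.01, 9.19 and 9.84. NG-Smo had the highest mean, 9.77 ± 0.31, and NG-Ptch the lowest, 9.04 ± 0.42 (SD, n = 4 each), but arrays of all 5 groups overlapped. NG-Smo minus NG-Ptch was 0.73 (SE 0.26, adjusted p = 0.27) and GFD-Smo minus NG-Smo was -0.65 (SE 0.26, adjusted p = 0.206). Between the models, GFD minus NG differed by -1.04 (SE 0.41, adjusted p = 0.179), and with 1 array left out it ran from -1.50 to -0.58.

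Igfbp5 (10355500), a binding protein that also attaches to the extracellular matrix, was highest in GFI-Ptch. The GFI-Ptch arrays read 9.78, 10.13, 9.65 and 10.14, and the NG-Ptch arrays 9.43, 9.24, 9.45 and 8.97. These arrays did not overlap, at means of 9.93 ± 0.25 and 9.27 ± 0.22 (SD, n = 4 each), yet the difference of 0.65 did not pass over all genes (SE 0.26, adjusted p = 0.512). GFD-Ptch arrays read 10.07 and 9.21 and GFD-Smo arrays 9.66, 9.31, 8.75 and 9.14. In NG-Smo 3 arrays lay at 8.71, 8.77 and 8.83 while replicate 2 read 9.92. NG-Smo replicate 2 thus lay in the GFI-Ptch range, as did GFD-Ptch replicate 1 and GFD-Smo replicate 1. The other NG-Smo arrays lay lowest together with GFD-Smo replicate 3 (8.75). NG-Smo minus GFI-Ptch, the widest gap for Igfbp5 (0.87 between means), did not pass, and 0 of the 9 genes did in this pair, where 1.65% of all genes passed. At an unadjusted p under 0.05, 3 of the 9 were past in that pair, against 15.7% of all genes.

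Igfbp4 (10381096), which restrains IGFs until the protease PAPP-A cleaves it, read 8.72, 8.81 and 8.89 in GFI-Ptch and 8.17 in the transplanted tumour. NG-Ptch arrays read 8.04 to 8.41, GFD-Ptch arrays 8.14 and 8.54, NG-Smo arrays 7.84 to 8.44 and GFD-Smo arrays 8.43 to 8.79. The means ran from 8.19 ± 0.17 in NG-Ptch to 8.65 ± 0.32 in GFI-Ptch (SD, n = 4 each). NG-Smo replicate 2 gave the lowest reading, 7.84. Among the settings run, Igfbp4 passed over the 5 groups without the transplanted tumour, without that tumour and NG-Smo replicate 4, and with array weights.

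Igfbp7 (10530841), a matrix protein abundant in vessels, was bright in all tumours at 11.47 to 12.31. GFD-Ptch arrays read 12.31 and 12.09 and did not overlap NG-Ptch at 11.47 to 11.99, GFI-Ptch at 11.55 to 12.01 or GFD-Smo at 11.67 to 11.91. None of these differences passed (limma adjusted p = 0.211, 0.415 and 0.12). No share of all genes without overlap is given here, and GFD-Ptch held only 2 arrays. NG-Smo arrays spread from 11.68 to 12.25. Between the models, GFD minus NG differed by -0.67 (SE 0.22, adjusted p = 0.108), the means of GFD minus NG running in opposite directions in the Ptch and Smo tumours without passing in either. Endothelial genes, 12 of 12 measured, averaged 8.48 to 8.54 in GFD-Ptch and 7.91 to 8.38 in NG-Ptch. The GFD-Smo arrays averaged 8.45 to 8.75, the NG-Smo arrays 8.08 to 8.68 and the GFI-Ptch arrays 7.79 to 8.23. Their highest group mean was thus in GFD-Smo (8.60), where Igfbp7 lay below GFD-Ptch. Over the 18 tumours, Igfbp7 and this mean had a Pearson r of 0.479 (permutation p = 0.0467, adjusted 0.28) and a Spearman rho of 0.49 (permutation p = 0.0429, adjusted 0.238), with an r of 0.692 without GFI-Ptch replicate 2 and GFD-Smo replicate 2. In GFD-Ptch against NG-Ptch all 12 lay above 0, 0 were called by limma and 6 were past an unadjusted p of 0.05, against 16.9% of all genes. Pericyte and fibroblast genes had an r of 0.363 with Igfbp7 (adjusted permutation p = 0.414). Their rho was 0.519 (permutation p = 0.0288, adjusted 0.238). After subtracting group means r was 0.659 for that list and 0.469 for endothelial genes. The part of any of these cells in the Igfbp7 levels was not tested. Igfbp6 (10427125), a binding protein that prefers IGF2, read 6.85 to 7.57, between the arrays' lower quartiles of 6.21 to 6.38 and their medians of 7.74 to 7.87. Its means ran from 6.99 ± 0.10 in NG-Ptch (SD, n = 4) to 7.21 ± 0.07 in GFD-Ptch (SD, n = 2).

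Read by comparison, the subtypes of Ptch tumours showed no called member. GFD-Ptch against NG-Ptch had 0 of 9, with 0.01% of all genes called, and 1 of 9 at an unadjusted p under 0.05 against 16.9% of all genes. The median change of the 9 was 0.15, against 0.04 for all genes. GFI-Ptch against NG-Ptch had 0 of 9, with 0% of all genes called, and 2 of 9 at an unadjusted p under 0.05 against 8.53%, with a median of 0.21 against 0.02. GFI-Ptch against GFD-Ptch had 0 of 9, with 0.00502% of all genes called, and 2 of 9 unadjusted against 9.79%, with a median of 0.29 against -0.02. At 2 and 4 arrays per group these tests left wide intervals, such as -1.09 to 0.14 for Igfbp2 in GFD-Ptch minus NG-Ptch.

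In the Smo tumours, GFD-Smo against NG-Smo had 0 of 9 called, with 5.31% of all genes called, and 2 of 9 at an unadjusted p under 0.05 against 15.9%. NG-Smo against NG-Ptch had 0 of 9, with 1.04% of all genes called, and 2 of 9 unadjusted against 10.6%. GFD-Smo against GFD-Ptch had 1 of 9, Igfbp2, where 15.6% of all genes were called, so the share of members called lay near that of all genes. The median change of the members there was 0.17, against -0.06 for all genes. When GFD minus NG was compared between the models, 0 of 9 passed, with 3.81% of all genes called, and 4 of 9 were past an unadjusted p of 0.05, against 20.1% of all genes. These 4 were Igf1r and Igfbp2, above 0, and Igfbp3 and Igfbp7, below 0. Comparisons that share a group share its arrays and are not independent of each other.

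**Figure D4:**
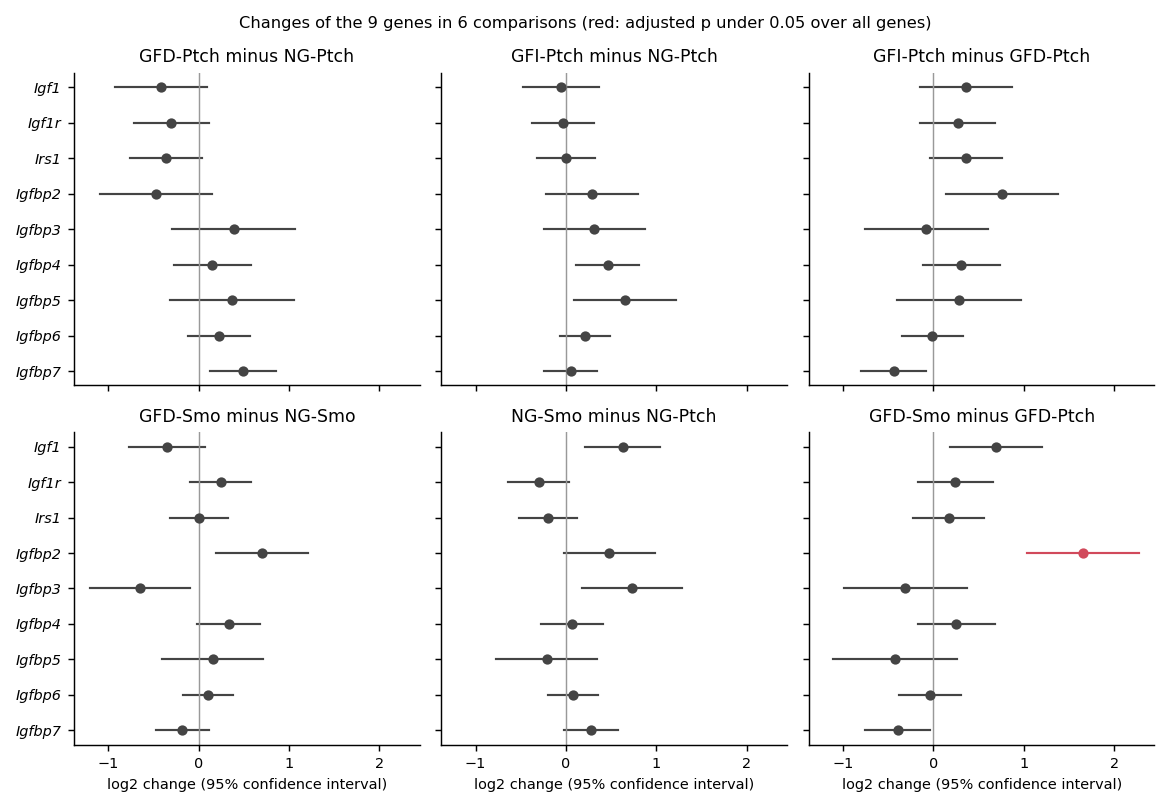
Log2 change (horizontal axes) with its 95% confidence interval for each gene in 6 comparisons; red marks an adjusted p under 0.05 over all genes. Igfbp2 in GFD-Smo minus GFD-Ptch, at 1.65, is the single red point.

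The genes most like each member were those with the highest Pearson r over the 18 arrays, given as a description since all genes share the arrays. For Igf1 these were Trem2 (r of 0.918), Mylip (0.909) and Skap2 (0.908), and Trem2, a receptor of microglia, is also on the microglia list. For Igfbp2 they were Mcc (0.938), Sqor (0.911) and Bmpr1b, a BMP receptor (0.901), which fell to 0.832, 0.645 and 0.713 once group means were subtracted. For Igfbp6 they were Msln, the mesothelial surface protein (0.933), Tchhl1 (0.911) and Slc6a12, a betaine and GABA transporter (0.906), at 0.945, 0.908 and 0.935 without group means. Irs1 was closest to Ypel1 (0.869), Dtx1 (0.862) and Cc2d2a (0.848), and Igf1r to Fbxl20 (0.835), Ocrl (0.815) and Accs (0.809). Igfbp7 was closest to Layn (0.829), Acot7 (0.788) and Tmem252 (0.767), and Igfbp5 to Iqsec1 (0.814), Nlrp2 (0.761) and C5ar1 (0.754). Igfbp4 was closest to Dnah7c (0.778), Dnah7b (0.774) and Zeb1 (0.738), of which the dynein pair are near-identical copies. The lowest values were those of Igfbp3, with Gsdmd (0.741), Serpinb11 (0.741) and Engase (0.734).

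Igf2 (10569344), the other ligand, was uniform in some groups and not in others. GFD-Smo arrays read 11.24, 11.12, 10.85 and 11.15, NG-Ptch arrays 9.39, 9.54, 9.46 and 9.71 and GFD-Ptch arrays 9.52 and 9.53. NG-Smo arrays read 9.43, 9.65 and 9.38 with 12.41 in replicate 2, and GFI-Ptch arrays 9.23, 10.25 and 8.06 with 11.47 in the transplanted tumour. All GFD-Smo arrays thus lay above both GFD-Ptch arrays, at a difference of 1.56 (SE 0.79) that did not pass (adjusted p = 0.179). It passed where only these groups were fitted (adjusted p = 0.000112), a fit that leaves out the spread of NG-Smo and GFI-Ptch. GFD-Smo minus NG-Smo was 0.87 (adjusted p = 0.635), and 1.6 without NG-Smo replicate 2 (adjusted p = 0.0944). Of the list of 6 other ligands and receptors, 5 were measured and limma called 0 in any pair of groups, with 0 to 2 per pair at an unadjusted p under 0.05. Over all genes the shares were 0% to 15.6% called and 8.53% to 33.3% unadjusted, depending on the pair. The insulin receptor Insr had means of 10.26 to 10.49, and Igf2r, which clears IGF2, had means of 8.63 to 9.27.

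Among 9 other adaptors of the receptor, Grb10, an inhibitory adaptor and imprinted gene, rose in GFD-Smo. Its arrays there read 10.49, 10.10, 10.26 and 9.70. The other groups read 6.78 to 7.07 in NG-Ptch, 6.95 and 7.21 in GFD-Ptch, 6.83 to 7.48 in GFI-Ptch and 7.01, 9.03, 6.74 and 6.97 in NG-Smo. Every GFD-Smo array was above every other array, and NG-Smo replicate 2 again stood above its group. Grb10 rose by 2.70 against NG-Smo (SE 0.37, adjusted p = 0.000418) and by 3.06 against GFD-Ptch (SE 0.45, adjusted p = 0.000403). The difference between models was 2.52 (SE 0.58, adjusted p = 0.0259). That difference was lost without GFD-Ptch replicate 1 (adjusted p = 0.095) or 2 (0.0896), without GFD-Smo replicate 1 (0.053) or 3 (0.0511), with the gender label in the model (0.08) and with the replicate block (2.58, 0.0614). In either of the 2 pairs named, 1 of the 9 adaptors rose and 0 fell, against 5.31% of all genes called for NG-Smo and 15.6% for GFD-Ptch.

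Of 9 other binding proteins and proteases of binding proteins, Htra1, a secreted serine protease that cleaves binding proteins, rose in GFD-Smo. Its arrays there read 9.84, 9.47, 9.37 and 9.27, against 8.67, 8.42, 8.84 and 7.92 in NG-Smo and 7.84 and 7.74 in GFD-Ptch, with no overlap. It rose by 1.02 against NG-Smo (SE 0.18, adjusted p = 0.00305), by 1.70 against GFD-Ptch (SE 0.22, adjusted p = 0.000183) and by 1.59 in the difference between models (SE 0.29, adjusted p = 0.00749). The last was 1.54 with the gender label in the model and then missed the threshold (adjusted p = 0.0657). In GFD-Smo against NG-Smo 1 of the 9 rose and 0 fell, where 5.31% of all genes were called. Against GFD-Ptch 1 of the 9 rose and 1 fell, where 15.6% of all genes were called. In the difference between models 1 was called above 0 and 1 below 0, where 3.81% of all genes were called. Esm1 fell by 0.35 against GFD-Ptch (adjusted p = 0.0121), at levels of 6.18 to 6.74, near the lower quartiles, and lost the call without GFD-Ptch replicate 2 (-0.20, adjusted p = 0.285), with quantile normalization (-0.24, 0.0975), with median centring (-0.28, 0.0554) and with the gender label (-0.28, 0.0671). In the difference between models Esm1 was at -0.45 (limma adjusted p = 0.0351), a call that held in 8 of the 18 fits without 1 array. Astrocyte genes were higher in GFD-Smo in these comparisons, as given above for Igfbp2, and their part in Htra1 and Grb10 was not tested.

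Of 21 listed genes of PI3-kinase, AKT and mTOR, 18 were measured. In GFD-Smo against GFD-Ptch 1 of these rose and 3 fell, against 15.6% of all genes called in either direction, with a median of -0.12 over the list and -0.06 over all genes. Foxo1, a transcription factor that AKT holds out of the nucleus, rose by 0.56 (SE 0.13, adjusted p = 0.012), from 8.48 and 8.10 in GFD-Ptch to 8.77, 8.96, 8.88 and 8.78 in GFD-Smo. Its relative Foxo3 fell by 0.35 (SE 0.07, adjusted p = 0.00363), from 10.01 and 9.85 to 9.48, 9.61, 9.59 and 9.66. The regulatory subunits of PI3-kinase Pik3r2, which fell by 0.45 (adjusted p = 0.0112), and Pik3r3, which fell by 0.36 (adjusted p = 0.0344), were the others. Foxo1 lost its call without GFD-Ptch replicate 2 (adjusted p = 0.243) and Foxo3 without GFD-Ptch replicate 1 (0.0664). Pik3r2 lost it without GFD-Ptch replicate 2 (0.189), and Pik3r3 without either GFD-Ptch array or any GFD-Smo array (0.052 to 0.149). With the gender label, Foxo1, Pik3r2 and Pik3r3 also missed the threshold (adjusted p = 0.0623, 0.0664 and 0.131). Pik3r3 missed it too with median centring (0.0977) and the replicate block (0.0657). In GFD-Smo against NG-Smo 0 rose and 1 fell, Pik3r2, by 0.32 (adjusted p = 0.043), where 5.31% of all genes were called. That call held in 8 of the 18 fits without 1 array and was lost with median centring (adjusted p = 0.0814), the replicate block (0.121) and trend and robust variance (0.0558). In NG-Smo against NG-Ptch and in the 3 comparisons of Ptch tumours, 0 of the 18 were called by limma, with 2 or 3 per comparison at an unadjusted p under 0.05, against 8.53% to 16.9% of all genes.

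**Figure D5:**
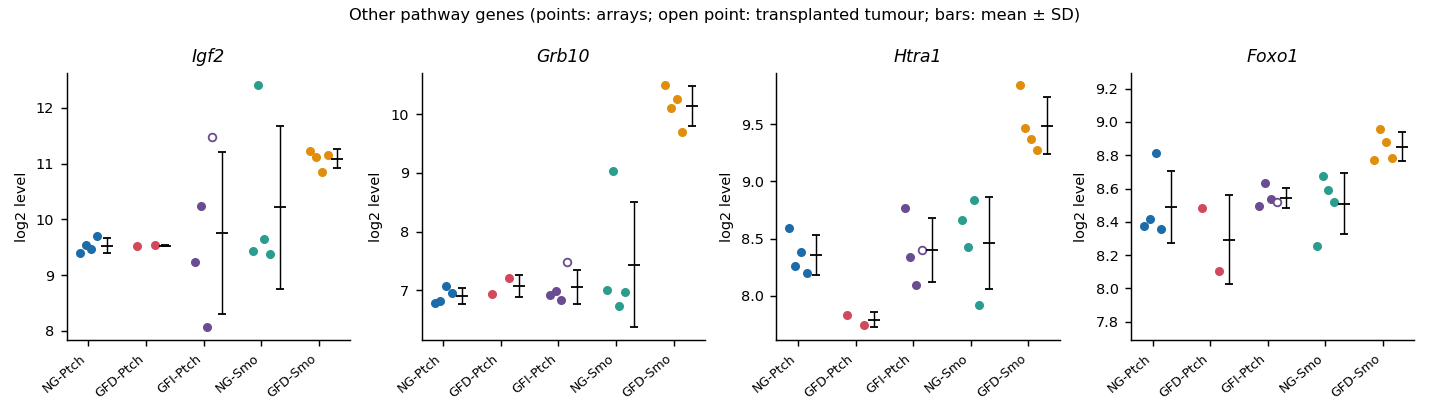
Log2 levels (vertical axes) of Igf2, Grb10, Htra1 and Foxo1 in the 18 arrays by group; points are arrays, the open point is the transplanted tumour and bars are the mean and SD. Grb10 lies at 9.70 or above in GFD-Smo and below 9.70 elsewhere, and NG-Smo replicate 2 stands above its group for Igf2 (12.41) and Grb10 (9.03).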

How the data were processed

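The deposited table held 35556 probe sets on 18 arrays (4.219 to 14.32), and the authors' values were taken as log2 from their range. The submitters' processing notes name Partek 6.6, and background correction, summary and scaling between arrays were not given in the sources used here. The number of arrays limits the precision. Probe sets with 1 symbol in the platform annotation (21789; 1621 had several and 12146 none) were reduced to the highest by mean per gene, giving 19938 genes. Group means were fitted with limma 3.58.1 in R 4.3.3 (13 residual degrees of freedom), with Benjamini-Hochberg adjustment over all genes and a call at adjusted p under 0.05, after a test on simulated data. Members and lists were chosen with earlier results of these data known. A change was printed for a member where called or at least 0.5 in size, up to 4 called genes were named per pathway list, and the 3 genes of highest r per member. Igf2 could always be named. Plots and permutations used Python 3.11.15. Alternatives were quantile normalization, median centring, a filter on dim genes (10700 kept), the mean of probe sets, the gender label (ND as its own level), a replicate block, trended and robust variances, array weights, fitting only the groups compared, and leaving out arrays. Start regions came from RefSeq.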

Additional observations from a re-analysis of the deposited data

Results flagged for a closer look

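In groups of 4 arrays, 56 sets of values (the 9 members, Igf2, Grb10, Htra1, Foxo1 and Foxo3 in 4 groups) were looked at for 1 array far from the others, and 6 stood out. For independent sets chance gives about 1 in 20. These sets share arrays, and Grb10, Htra1, Foxo1 and Foxo3 were taken because they were called in the same data. No excess over chance can therefore be read from the count. NG-Smo replicate 2 read 9.92 for Igfbp5 against 8.71 to 8.83 in the rest of its group, 12.41 for Igf2 against 9.38 to 9.65, and 9.03 for Grb10 against 6.74 to 7.01. The transplanted tumour read 11.29 for Irs1 against 11.93 to 12.02 in the other GFI-Ptch arrays. NG-Ptch replicate 4 read 8.81 for Foxo1 against 8.36 to 8.42, and GFI-Ptch replicate 3 read 9.91 for Foxo3 against 9.70 to 9.71.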

How the results depend on the processing

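Over 28 settings, 18 of them leaving out 1 array, 41 results for single genes gave 1136 values, of which 1041 kept direction and side of the threshold, 74 lost the call, 20 gained one and 1 turned direction. That one was Igf2 in NG-Smo minus NG-Ptch, uncalled at 0.69 and -0.039 without NG-Smo replicate 2 (with arrays left out, -0.039 to 0.97). Of the 223 counts of called members, 195 were taken as unmoved, a margin that lets a count of 2 become 3. The count in GFD-Smo minus GFD-Ptch, 1 with all arrays, became 2 with quantile normalization, median centring, the filter on dim genes, the replicate block, array weights, and without the transplanted tumour and NG-Smo replicate 4, each time by adding Igf1, and 3 (Igf1, Igfbp2 and Igfbp7) with only the groups compared. Leaving out 1 array gave 1 to 2. The count over the 5 groups, 2 with all arrays, was 1 with the gender label, 4 (Igf1, Irs1, Igfbp2 and Igfbp4) with array weights or without the transplanted tumour and NG-Smo replicate 4, and 1 to 3 with 1 array left out. GFI-Ptch minus NG-Ptch went from 0 to 1 with array weights (Igfbp4), and NG-Smo minus NG-Ptch from 0 to 1 without those 2 arrays (Igf1). GFD-Smo minus NG-Smo and the difference between models gave 0 to 1 with 1 array left out, the 1 being Igfbp2 without NG-Smo replicate 2. The cause was not tested. Same-numbered replicates did not pair (r of -0.31 to 0.187, over 0.1 in 3 of 29 pairs). With the replicate block, calls over all genes went from 1058 to 810 in GFD-Smo minus NG-Smo, from 208 to 34 in NG-Smo minus NG-Ptch, from 3110 to 2217 in GFD-Smo minus GFD-Ptch and from 759 to 417 in the difference between models. Array weights raised them to 1740, 419, 5906 and 1484, and in GFD-Ptch minus NG-Ptch from 2 to 565. With the gender label they were 1127, 96, 2521 and 188. The filter on dim genes removed Igfbp6 and Esm1. With 2 arrays, GFD-Ptch limits every comparison it enters.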
